A study of Mus musculus with 2 samples.

Results

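The transcripts of 10 integrin subunits of structural cells were followed through every cell type of the normal mouse thoracic aorta. The members were chosen by symbol (*Itga1*, *Itga3*, *Itga5*, *Itga7*, *Itga8*, *Itga9*, *Itgav*, *Itgb1*, *Itgb3* and *Itgb5*), and they are 10 of 27 integrin genes among 32287 features. Their raw unique molecular identifiers (UMIs, each marking 1 captured RNA molecule) were summed for each aorta and marker-defined cell type, and for each subset of smooth muscle cells (SMCs). The 2 aortas came from GFPiSMC mice, also called WT, of the C57BL/6J strain at 12 weeks of age, and tamoxifen (1 mg/d, intraperitoneal) had been given to both over 5 days, from the age of 3 weeks. These mice carry Myh11-CreERT2 and the mT/mG reporter, so the *Myh11* promoter directs recombination to SMCs, and the groups of cells compared here share this treatment. Each library held viable single cells of 1 aorta with no GFP gate in the labels, so there was 1 group with n = 2 and the comparisons are between cell types.

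Integrins are transmembrane heterodimers of an α and a β subunit that tie the extracellular matrix to the actin cytoskeleton. The β1 subunit is shared by many α subunits, α1β1 binds collagens, α3β1 and α7β1 bind laminins, and α5β1, α8β1 and the αv pairs recognize the Arg-Gly-Asp motif of fibronectin, nephronectin or vitronectin. In the aortic media, these receptors anchor SMCs to basement membrane and elastic laminae.

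The genes lie on the GRCm38 (mm10) assembly, and a level is the number of UMIs assigned to the gene, scaled to the total of its sum. *Itga8* (ENSMUSG00000026768) spans chr2:12106632-12301922 on the minus strand and *Itgb1* (ENSMUSG00000025809) spans chr8:128685654-128733200 on the plus strand. The 250 bases before the RefSeq start (GRCm38.p6) are shown for this pair because they were the highest integrin transcripts of SMCs. Capitals mark CAGAC, a short SMAD-binding element, on either strand. The *Itga8* stretch is chr2:12301945-12302194 on the minus strand and the *Itgb1* stretch is chr8:128685404-128685653 on the plus strand.
Itga8: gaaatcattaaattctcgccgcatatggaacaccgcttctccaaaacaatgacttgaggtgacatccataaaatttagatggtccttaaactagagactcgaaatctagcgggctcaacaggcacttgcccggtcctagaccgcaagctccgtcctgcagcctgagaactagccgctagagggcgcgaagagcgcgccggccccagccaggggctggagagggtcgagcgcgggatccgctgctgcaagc
Itgb1: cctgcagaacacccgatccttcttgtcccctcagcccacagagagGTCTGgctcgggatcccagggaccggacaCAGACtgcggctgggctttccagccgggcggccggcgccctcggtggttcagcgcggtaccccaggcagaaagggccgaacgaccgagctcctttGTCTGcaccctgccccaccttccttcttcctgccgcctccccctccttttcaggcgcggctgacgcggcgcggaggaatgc
The *Itgb1* stretch held 3 copies of CAGAC, and the *Itga8* stretch held none, while 42.2% of 32851 mouse promoters of this length held at least 1. Neither stretch held a CArG box, the serum response factor element of many contractile genes, which was present in 1.47% of these promoters. Of the 10 members, 8 had an entry in the promoter table, and none of these had a CArG box in that window. The *Itga9* entry (chr9:118711442-118711691) lies inside the annotated gene (chr9:118606690-118901003), so it may not be its main start. The *Itga8* stretch was 56.4% GC and the *Itgb1* stretch 68.0% GC, against a median of 52.4% over all promoters. *Itga1* (chr13:114953096-115101964) overlaps *Pelo* on the same strand. *Itga1*, *Itga7*, *Itga8*, *Itga9* and *Itgav* overlap a counted gene on the opposite strand. The use of strand in counting was not stated, and whether reads from these partners entered the levels was not tested.

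The analysis kept 6520 and 4593 cells, which fell into 29 clusters. SMCs numbered 2218 and 1611, fibroblasts 1628 and 1134, endothelial cells 739 and 648, lymphatic endothelial cells 46 and 76, mesothelial cells 274 and 156, myeloid cells 961 and 596, and lymphocytes 617 and 358 in aortas 1 and 2, besides 24 and 14 erythroid cells and 13 unnamed cells of aorta 1. Cells had a median of 7718 and 7477 UMIs among SMCs, and this median ranged from 2957 to 6605 UMIs in the other named types apart from erythroid cells. The 7 SMC markers summed to 42165 and 40142 CPM (UMIs per 1000000 UMIs of the sum) in SMCs and to between 518 and 2620 CPM in the other named types apart from erythroid cells, and all 7 had UMIs in the sum of both aortas of each. In erythroid cells 2 of the 7 were at 0. A cluster of 799 SMCs had a median of 1793 UMIs, 0.321 of the median of its own aorta. The libraries shared 18 barcodes. A 3′ UMI count holds 1 count per captured molecule, so levels are compared between genes without scaling for length.

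SMCs carried the highest level of 5 of the 10 transcripts in both aortas, and *Itga8* and *Itgb1* stood far above the rest. *Itga8* was at 1575 and 1604 CPM and *Itgb1* at 1629 and 1511 CPM in the SMCs of aortas 1 and 2. The order of this pair switched between aortas, so they do not differ beyond their spread. The next transcripts in SMCs were *Itga9* at 371 and 372 CPM, *Itgb5* at 285 and 307 CPM, and *Itga1* at 237 and 219 CPM. The other 5 members lay between 43.1 and 106 CPM. *Itga8* made up 63.7% and 64.8% of the UMIs of the 7 α members in SMCs.

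**Figure D1:**
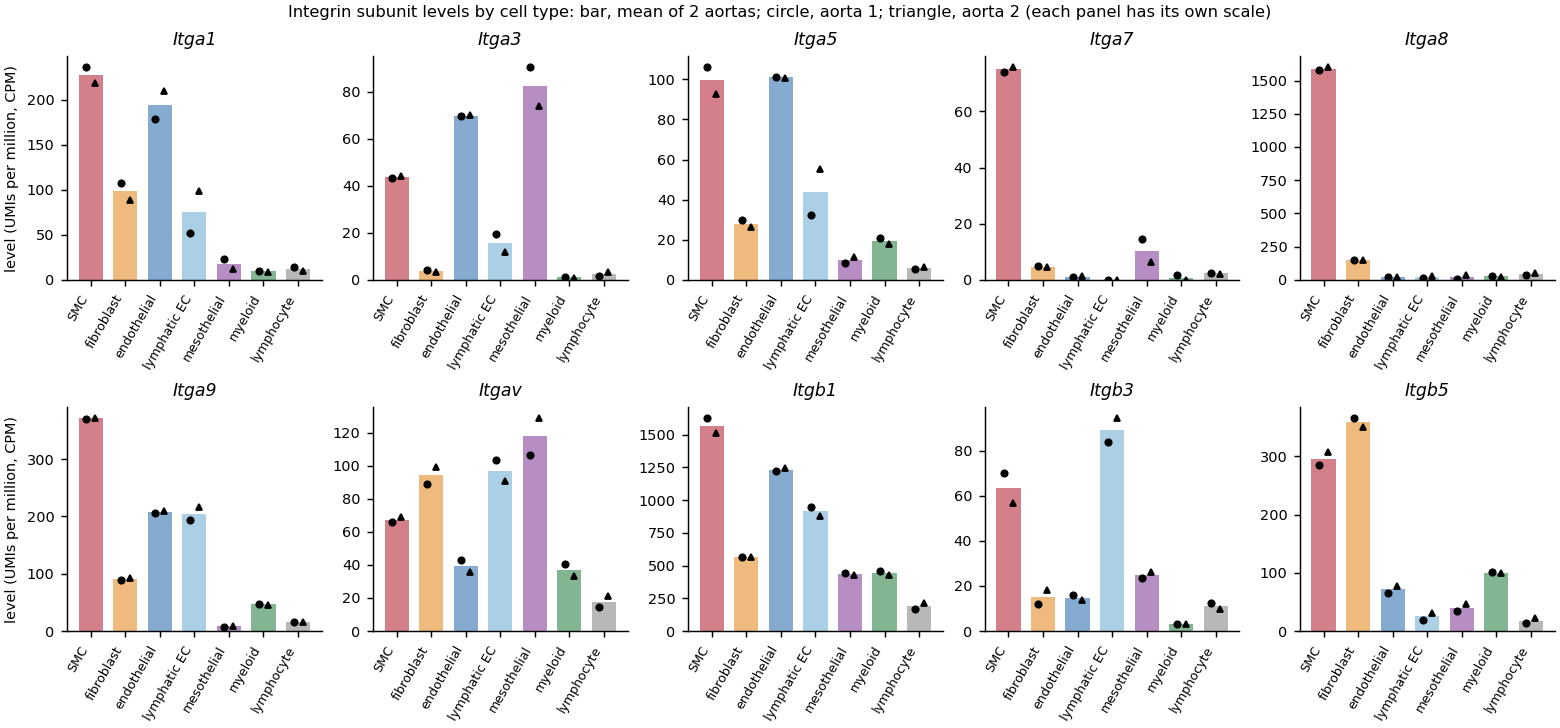
Levels (CPM, linear axis from 0) of the 10 integrin subunit transcripts in 7 cell types, with bars for the mean of 2 aortas, circles for aorta 1 and triangles for aorta 2; each panel has its own scale. *Itga8* and *Itga7* stand in SMCs, *Itgb5* is shared by SMCs and fibroblasts, and *Itgb3* reaches 83.9 and 94.6 CPM in lymphatic endothelial cells. *Itga3* has its highest mean in mesothelial cells, where it did not differ by the test from endothelial cells (edgeR, adjusted p = 0.229).

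All 10 members differed among cell types by the quasi-likelihood F test of edgeR, but so did 91.3% of the 13955 genes tested, so this count says little about the members. Pairs of types were therefore compared with a call that needed an adjusted p under 0.05 and over 2-fold. The types were defined from other genes of the same cells, with integrin genes left out of the clustering. Fold changes come from the edgeR fit with trimmed-mean scaling, so they can differ from ratios of the CPM printed here. Against lymphatic endothelial cells, for example, *Itgb3* averaged 63.6 CPM in SMCs and 89.2 CPM in lymphatic cells, but its fitted log2 fold change was -0.026. For *Itga5* in SMCs against endothelial cells (means of 99.5 and 101 CPM), the fitted value had the opposite sign to the ratio of means.

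Against fibroblasts, 8 of 10 members were higher in SMCs and none was higher in fibroblasts. Among all genes, 10.5% were called higher in SMCs and 14.8% higher in fibroblasts, or 25.3% in either direction. The median log2 fold change was 2.07 over the members and -0.01 over all genes. With DESeq2 the median over all genes moved to -0.20 and the share of calls higher in SMCs fell from 41.4% to 28.1%, while the 8 members kept their direction and their call. *Itgb5* then had a log2 fold change of -0.43 (DESeq2, adjusted p = 0.00017), still under 2-fold. The member count ranged from 8 to 9 over 15 alternatives.

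The α8 transcript had the largest gap in level. *Itga8* was at 149 and 154 CPM in fibroblasts, 0.0945 and 0.0959 of its level in SMCs, and the aortas of the types did not overlap (log2 fold change 3.54 ± 0.21 SE, adjusted p = 2.66e-13, edgeR). SMCs held 93.2% and 93.4% of all *Itga8* UMIs in aortas 1 and 2, although they were 34.0% and 35.1% of the cells. *Itga7*, the laminin-binding α7 of muscle, was at 74.1 and 75.9 CPM in SMCs against 4.82 and 4.51 CPM in fibroblasts (4.13 ± 0.19, adjusted p = 9.34e-15), and SMCs held 92.8% and 95.2% of its UMIs.

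β1 and other partners of it had smaller differences, except α3. *Itgb1* was at 567 and 569 CPM in fibroblasts, and its log2 fold change was 1.61 ± 0.19 (adjusted p = 6.5e-08). *Itga9*, whose product with β1 binds tenascin and related ligands, was at 89.4 and 91.8 CPM in fibroblasts (2.18 ± 0.10, adjusted p = 6.69e-16). *Itga5*, the fibronectin receptor subunit, was at 106 and 92.7 CPM in SMCs and 29.98 and 26.2 CPM in fibroblasts (1.961 ± 0.12). *Itga1*, the collagen receptor subunit, was at 108 and 88.9 CPM in fibroblasts (1.35 ± 0.13). *Itga3* was low in fibroblasts, at 4.13 and 3.49 CPM against 43.1 and 44.2 CPM in SMCs (3.63 ± 0.17). In each of these members, both SMC values were above both fibroblast values.

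*Itgav* and *Itgb5* did not follow. *Itgav* was at 65.8 and 69.0 CPM in SMCs and 89.2 and 99.4 CPM in fibroblasts, and the difference of -0.34 ± 0.11 in log2 units (adjusted p = 0.0112) was under the 2-fold limit. *Itgb5*, a β subunit that pairs with αv, was at 366 and 350 CPM in fibroblasts, and its difference from SMCs did not pass the test (-0.14, 95% interval -0.35 to 0.08, adjusted p = 0.325). *Itgb3*, the other αv partner in the list, was higher in SMCs at 70.2 and 57.0 CPM against 11.9 and 18.2 CPM (2.26 ± 0.16, adjusted p = 5.97e-12).

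**Figure D2:**
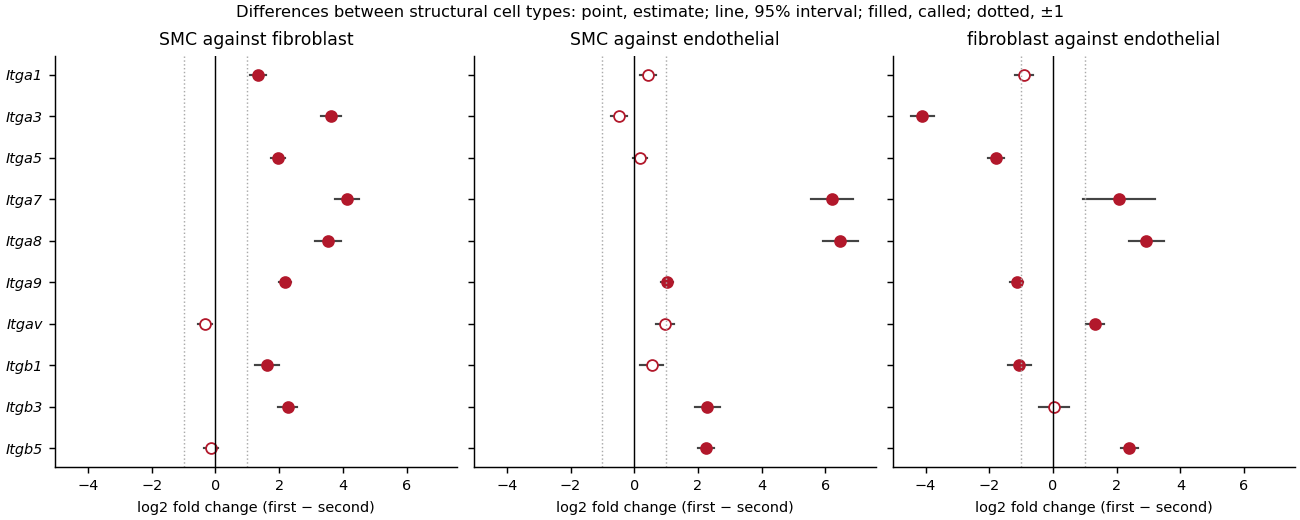
Log2 fold changes of the 10 transcripts in 3 comparisons of structural cell types, with lines for the 95% interval of the edgeR fit, filled points for calls (adjusted p under 0.05 and over 2-fold) and dotted lines at a log2 fold change of 1 in each direction. *Itga8* and *Itga7* lie farthest to the SMC side against endothelial cells (6.47 and 6.20), *Itga7*, *Itga3* and *Itga8* do so against fibroblasts (4.13, 3.63 and 3.54), and *Itgav* and *Itgb5* lie near 0 between SMCs and fibroblasts.

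Endothelial cells differed from SMCs most in α8 and α7. Of 10 members, 5 were higher in SMCs and none was higher in endothelial cells, against 14.4% and 15.4% of all genes (29.8% in either direction, and 52.3% by adjusted p alone). *Itga8* was at 22.2 and 18.7 CPM in endothelial cells (6.47 ± 0.28, adjusted p = 2.12e-16) and *Itga7* at 0.993 and 1.34 CPM (6.20 ± 0.34, adjusted p = 1.37e-13). *Itgb3* at 15.9 and 13.8 CPM (2.29 ± 0.20) and *Itgb5* at 65.5 and 77.9 CPM (2.25 ± 0.13) were also called. *Itga9* at 207 and 210 CPM passed at a log2 fold change of 1.04 ± 0.10, which was under 2-fold with DESeq2 (0.86), with doublets kept (0.94) and with 5000 to 25000 UMIs per cell (0.88). With 5000 to 25000 UMIs per cell, *Itga8* was at 188 ± 58.2 CPM (SD, n = 2) in endothelial cells and its log2 fold change was 3.18, while that of *Itga7* was 2.76. With doublets kept *Itga8* was at 140 ± 42.9 CPM and the log2 fold changes were 3.67 and 3.30. The levels of both in endothelial cells depend on these filters, and both differences were called under each.

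Levels of β1, α1 and α5 were close in these 2 types. *Itgb1* was at 1220 and 1242 CPM in endothelial cells, below both SMC values, with a log2 fold change of 0.55 ± 0.19 (adjusted p = 0.0142). *Itga1* was at 179 and 210 CPM (0.44 ± 0.13, adjusted p = 0.0068) and *Itgav* at 42.7 and 35.6 CPM (0.97 ± 0.14, adjusted p = 1.99e-06), both under 2-fold. The *Itgav* value was close to that limit, and its 95% interval (0.69 to 1.25) reached over it. *Itga5* was at 101 CPM in each aorta, within the range of the SMC values, and the difference did not pass the test (0.18, 95% interval -0.04 to 0.41, adjusted p = 0.188). *Itga3* leaned the other way at 69.5 and 69.9 CPM (-0.47 ± 0.13, adjusted p = 0.00267).

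Fibroblasts and endothelial cells split the members. Of 10 members, 4 were higher in fibroblasts and 4 in endothelial cells, against 14.3% and 11.5% of all genes (25.8% in either direction). *Itgb5* (2.39 ± 0.14) and *Itgav* (1.31 ± 0.14) were on the fibroblast side, and *Itga3* (-4.10 ± 0.18), *Itga5* (-1.78 ± 0.13), *Itga9* (-1.14 ± 0.10) and *Itgb1* (-1.06 ± 0.19) on the endothelial side. On the endothelial side, the 95% intervals of *Itga9* (-1.34 to -0.94) and *Itgb1* (-1.42 to -0.69) reached under 2-fold. *Itga8* (2.93 ± 0.28) and *Itga7* (2.07 ± 0.58) were called for fibroblasts too, but neither call held with 5000 to 25000 UMIs per cell, where the log2 fold changes were -0.029 and -0.84, nor with doublets kept (0.34 and -0.55). *Itga7* also lost the call at both other clustering resolutions (1.501 and 0.45) and with listed genes allowed in the clustering (1.03). *Itgb3* did not pass the test (0.03, 95% interval -0.43 to 0.49).

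Mesothelial cells, the squamous cover of the outer aortic surface, had their own order. *Itgav* at 107 and 129 CPM and *Itga3* at 90.5 and 73.9 CPM led their α transcripts. Of 10 members, 8 were higher in SMCs and none in mesothelial cells (13.2% and 15.8% of all genes, 29.0% in either direction). *Itga9* was at 7.22 and 9.37 CPM (5.77 ± 0.18), *Itga5* at 8.33 and 11.4 CPM (3.63 ± 0.21) and *Itga1* at 23.3 and 12.5 CPM (3.79 ± 0.21). *Itga3* (-0.71 ± 0.14, adjusted p = 0.000132) and *Itgav* (-0.55 ± 0.13, adjusted p = 0.00137) leaned to mesothelial cells under 2-fold. Between fibroblasts and mesothelial cells, 5 members were higher in fibroblasts and 2 in mesothelial cells (12.7% and 11.1% of all genes, 23.9% in either direction). The log2 fold change was -4.34 ± 0.19 for *Itga3* and 3.30 ± 0.17 for *Itgb5*. Between endothelial and mesothelial cells, 4 members were higher in endothelial and 2 in mesothelial cells (12.0% and 13.4% of all genes, 25.3% in either direction), with *Itga9* at 4.73 ± 0.19 and *Itgav* at -1.52 ± 0.16. The other member on the mesothelial side was *Itga7* (-3.27 ± 0.61), which lost the call with doublets kept (-0.82) and with 5000 to 25000 UMIs per cell, where its sign turned (0.24). *Itga7* was also called lower in fibroblasts than in mesothelial cells (-1.20 ± 0.39), with a value of -1.497 in aorta 1 and -0.36 in aorta 2. *Itga8* was at 6.67 and 40.6 CPM in mesothelial cells, and its log2 fold change from SMCs was 8.12 in aorta 1 and 5.52 in aorta 2.

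Lymphatic endothelial cells were few and their values are less precise. Against SMCs, 8 members were higher in SMCs and none was lower (12.5% and 10.7% of all genes, 23.2% in either direction). Against the other endothelial cells 4 members were lower and 2 higher in lymphatic cells (6.97% and 5.41% of all genes, 12.4% in either direction). *Itgb3* was at 83.9 and 94.6 CPM, above both values of endothelial cells (log2 fold change of endothelial against lymphatic endothelial cells -2.32 ± 0.37, adjusted p = 5.96e-05). *Itgav* was at 103 and 90.6 CPM, from 16 and 23 UMIs. Its call sat on the 2-fold limit (-1.0004 ± 0.29, adjusted p = 0.0167). *Itga3* was lower, at 19.4 and 11.8 CPM (2.51 ± 0.42). *Itga7* had no UMI in either aorta, where 3 UMIs would be 19.4 and 11.8 CPM.

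The label of structural-cell subunits was set against the immune cells of the same aortas, and no member was higher in all of its structural-against-immune pairs. Over the 4 main structural types against myeloid cells and lymphocytes, 53 of 80 pairs of member and type were higher in the structural type, 6 were higher in the immune type and 21 were not called. All 20 pairs with SMCs but 1 were higher in SMCs, the exception being *Itgav* against myeloid cells (0.79). Of all genes, 22.4% were higher in SMCs than in myeloid cells and 21.7% lower, and 25.8% were higher in SMCs than in lymphocytes and 21.8% lower. In fibroblasts the shares were 22.1% higher and 18.8% lower against myeloid cells, and 27.5% and 20.9% against lymphocytes. In endothelial cells they were 18.5% and 17.3% against myeloid cells, and 23.7% and 18.6% against lymphocytes. In mesothelial cells they were 20.1% and 17.8%, and 24.7% and 19.0%. *Itgb1* was at 455 and 429 CPM in myeloid cells and did not differ by the test from fibroblasts (567 and 569 CPM, 0.16, adjusted p = 0.461). *Itgb5* was at 102 and 99.2 CPM in myeloid cells, above both endothelial values (0.76 in log2 units, adjusted p = 6.23e-05, under 2-fold). The 6 pairs on the immune side were *Itga8* in lymphocytes against endothelial and mesothelial cells, *Itga9* in both immune types against mesothelial cells, and *Itga5* and *Itgb5* in myeloid cells against mesothelial cells. All 6 lay at 102 CPM or less in both types. *Itga8* in mesothelial cells was at 6.67 CPM against 35.4 CPM in lymphocytes in aorta 1, but at 40.6 against 49.6 CPM in aorta 2. In endothelial cells and lymphocytes, *Itga8* was at 188 ± 58.2 and 100.4 ± 50.4 CPM (SD, n = 2) with 5000 to 25000 UMIs per cell, and at 140 ± 42.9 and 113 ± 20.7 CPM with doublets kept, so the order of the means was then the reverse. Among lymphocyte clusters, *Itga8* was highest in the one led by *Hist1h1b* (71.2 and 142 CPM), whose SMC markers summed to 2704 and 2758 CPM, and the part of the latter in this level was not tested.

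Of the 7 types, the 7 listed α transcripts together exceeded β1 in SMCs. They summed to 2472 and 2476 CPM in SMCs, 1.52 and 1.64 times *Itgb1*. The ratio was 0.837 and 0.823 in fibroblasts, 0.510 and 0.520 in endothelial cells, 0.585 and 0.659 in mesothelial cells, 0.435 and 0.574 in lymphatic endothelial cells, 0.333 and 0.307 in myeloid cells, and 0.531 and 0.504 in lymphocytes. The SMC values did not overlap those of any other type. The sum leaves out α subunits that are not in the list, such as *Itgam* at 486 and 395 CPM and *Itga4* at 185 and 170 CPM in myeloid cells, and *Itga4* at 191 and 196 CPM in lymphocytes, so with them the α transcripts exceed *Itgb1* in both immune types too. The composition also differed. In endothelial cells *Itga9* (33.2% and 32.5% of α UMIs) and *Itga1* (28.8% and 32.5%) led, with *Itga5* at 16.3% and 15.6%. In mesothelial cells *Itgav* (41.5% and 45.6%) and *Itga3* (35.2% and 26.1%) led.

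**Figure D3:**
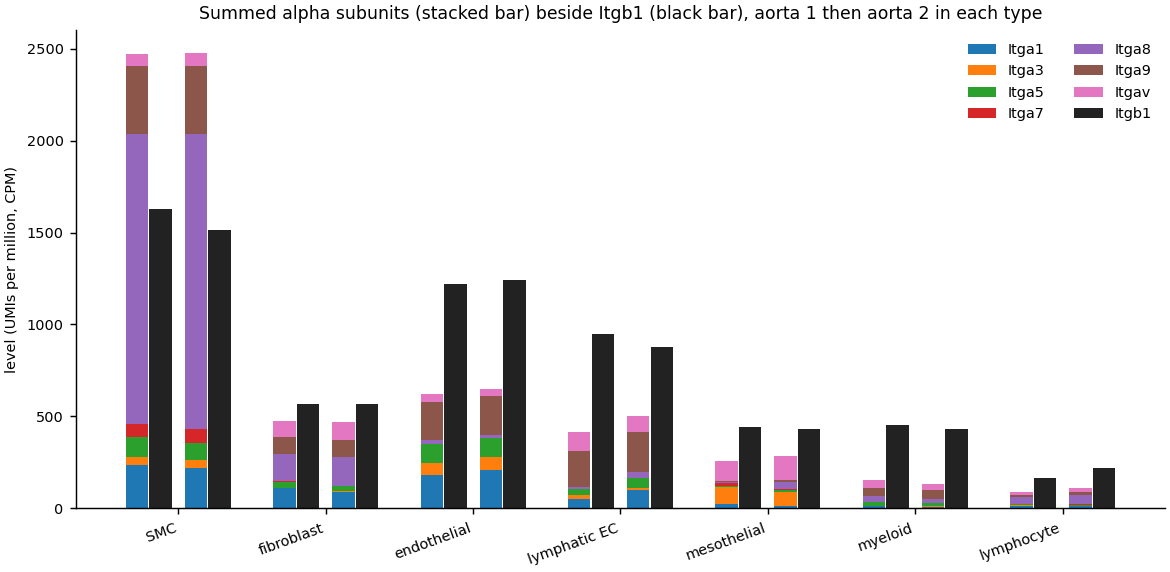
Stacked levels (CPM, axis from 0) of the 7 α transcripts beside *Itgb1* (black) in each cell type, aorta 1 and then aorta 2. The α stack stands above *Itgb1* in SMCs, at 2472 against 1629 CPM and 2476 against 1511 CPM, and below it in each of the other 6 types.

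In single cells, *Itga8* and *Itgb1* were found together in most SMCs. After each cell was thinned to 1000 UMIs, 71.5% (exact 95% interval 69.5 to 73.3) and 70.9% (68.7 to 73.2) of SMCs had an *Itga8* UMI, and 73.2% and 71.9% had an *Itgb1* UMI. Both were present in 54.4% and 52.3% of SMCs, and neither in 9.69% and 9.37%. Whether the joint share exceeds that of independent detection was not tested. At full depth 90.3% and 91.4% of SMCs had both. *Itga8* was found in 9.40% and 10.6% of thinned fibroblasts. The share was 1.62% and 1.40% in thinned lymphocytes, set beside as cells that should lack it, and 1.89% and 0.926% in thinned endothelial cells. By summed level *Itga8* was called higher in lymphocytes than in endothelial cells, so these shares are only a rough background. At this equal depth *Itgb5* was found more often in fibroblasts (32.9% and 31.6%) than in SMCs (22.4% and 24.0%), as was *Itgav* (7.86% and 9.96% against 5.996% and 7.01%). Without thinning, *Itga8* was found in 93.1% and 93.9% of SMCs, 26.2% and 23.7% of fibroblasts and 7.62% and 4.75% of lymphocytes. The intervals cover counting error only.

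The levels outside SMCs were set beside those of the SMC markers. In fibroblasts *Itga8* was at the ratios to SMCs given above, inside the range of the 7 SMC markers there (0.0423 to 0.146 and 0.0474 to 0.151). The same held for *Itga3* (0.0958 and 0.0791) and *Itga7* (0.0650 and 0.0595) in fibroblasts. In endothelial, lymphatic endothelial, mesothelial and myeloid cells and lymphocytes, *Itga8* lay inside or below the marker range in both aortas. *Itga9*, *Itga5*, *Itga1*, *Itgb1*, *Itgb3*, *Itgb5* and *Itgav* lay above that range in fibroblasts and endothelial cells in both aortas. The part of SMC RNA in these levels was not tested.

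Fibroblast *Itga8* was uneven among the 5 fibroblast clusters. The cluster led by *Dio2* had 395 and 637.5 CPM and the cluster led by *Mab21l2* 299 and 439 CPM, and their SMC markers summed to 9045 and 8690 CPM over both aortas. The clusters led by *Sfrp4* (29.5 and 23.5 CPM) and *Pla1a* (33.9 and 10.1 CPM) were low. The *Fmod* cluster was between them at 119 and 140 CPM, and its SMC markers summed to 798 and 686 CPM. Its ratio to SMCs was 0.0802, inside the range of the 7 SMC markers in this cluster (0.0111 to 0.141). Without the *Dio2* and *Mab21l2* clusters (418 and 155 cells), a choice made after their values were seen, fibroblast *Itga8* was 65.7 ± 4.35 CPM (SD, n = 2). The log2 fold change of SMCs against the remaining fibroblasts was then 4.72 for *Itga8*, 5.79 for *Itga7* and 4.74 for *Itga3*. With all fibroblasts kept, it was 4.62, 5.74 and 4.67 at Leiden resolution 2, and 4.25, 5.17 and 4.44 with listed genes allowed in the clustering. Without the *Dio2* and *Mab21l2* clusters, fibroblast *Itga7* was 0.41 log2 units above endothelial cells and was not called (adjusted p = 0.698).

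Other members divided the fibroblast clusters along other lines. *Itga1* was at 217 and 189 CPM in the *Fmod* cluster and at 19.0 and 8.07 CPM in the *Pla1a* cluster. *Itgb3* had the reverse order, at 1.87 and 4.82 CPM in the *Fmod* cluster and 39.5 and 38.3 CPM in the *Pla1a* cluster. *Itgav* stayed between 63.1 and 108 CPM in all 5. Among endothelial clusters, *Itgb5* was at 94.6 and 114 CPM in the cluster led by *Emcn* and at 20.8 and 6.54 CPM in the one led by *Igf2*, whereas *Itgb3* was at 5.25 and 10.02 CPM in the former and 44.1 and 26.1 CPM in the latter. In myeloid cells, *Itgb5* reached 287 and 380 CPM in the cluster led by *Mmp12* against 102 and 84.9 CPM in that led by *Mrc1*. In both aortas the clusters of each of these pairs kept the same order. These clusters were made from the same cells, so the values are descriptions without a test.

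**Figure D4:**
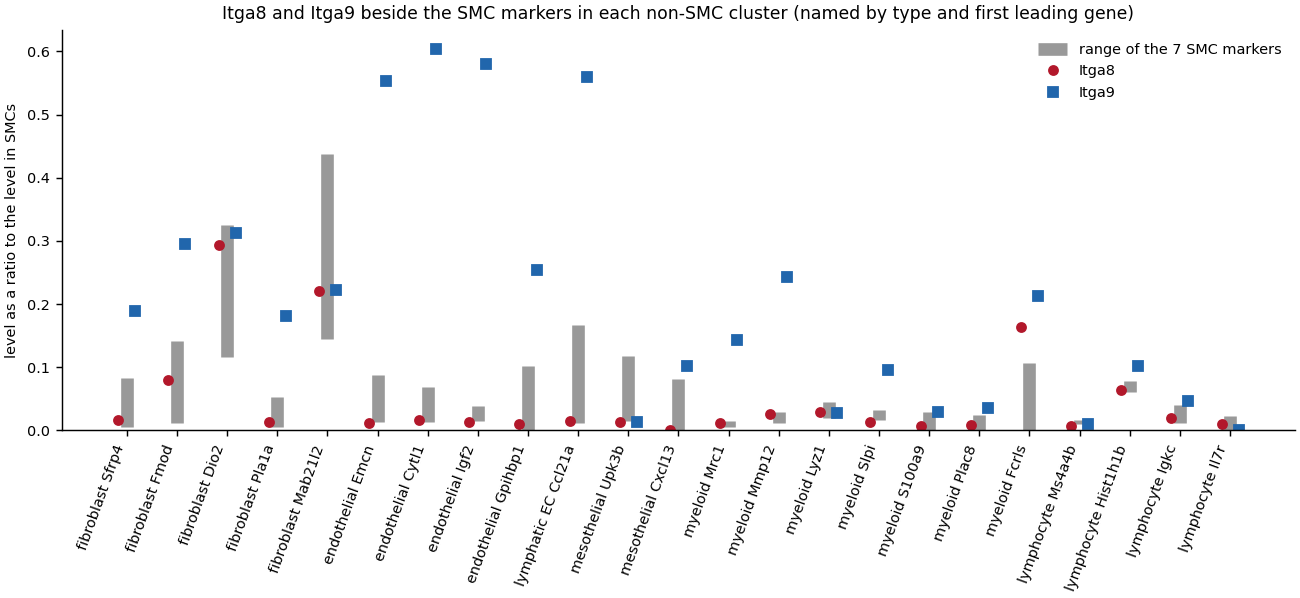
Level of *Itga8* (circles) and *Itga9* (squares) as a ratio to the level in SMCs for each cluster of the other named types apart from erythroid cells. Both aortas are summed, and grey bars run from the lowest to the highest ratio of the 7 SMC markers. *Itga8* lies within or under the grey bar except in the *Fcrls* myeloid cluster (0.164), while *Itga9* lies above it in the endothelial clusters and reaches 0.603 in the *Cytl1* cluster. In the erythroid cluster, which is not drawn, *Itga8* was above the marker range too (0.0601).

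SMC subsets differed in α3 and α5 more than in α8 and β1. The SMCs fell into 7 subsets, and 6 of these held 10 cells or more per aorta. They were led by *Tnnt2* and *Hand2* (1050 cells), *Adamtsl1* and *Tshz2* (895 cells), *Hoxa7* and *Ccdc3* (828 cells), *Cyb5r3* and *Atf5* (757 cells), *Adam33* (155 cells) and *Pln* and *Sncg* (123 cells). A subset of 21 cells with endothelial genes among its leaders was not tested. All 10 members passed the F test among the 6 subsets, against 46.0% of 11162 genes. The subsets were made from other genes of these cells, so the test is not independent of how they were formed.

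The subset led by *Adamtsl1* was the low point of α5 and α3. *Itga5* was at 26.8 CPM in each aorta there, against 88.4 to 228 CPM in the other 5 subsets, and its highest subset mean was 7.42 times its lowest (adjusted p = 7.28e-14). *Itga3* was at 13.3 and 16.3 CPM there, against 35.7 to 66.2 CPM in the others (4.35 times, adjusted p = 1.84e-11). In the same subset *Itga8* (1683 and 1771 CPM) and *Itga9* (429 and 419.5 CPM) had the highest means of the 6 subsets, although single values of the *Adam33* subset were higher (1964 and 442 CPM). *Itga8* was lowest in the subset led by *Pln*, *Sncg* and *Notch3* (1081 and 1309 CPM), and its highest mean was 1.45 times the lowest. *Itgb1* varied least, with a ratio of 1.22.

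The remaining members lay between these extremes. *Itga7* was highest in the *Adam33* subset (97.1 and 145 CPM) and lowest in the *Cyb5r3* subset (45.6 and 51.2 CPM), 2.51 times apart, and the *Adamtsl1* subset was nearly as low (51.1 and 47.8 CPM). *Itga1* had its highest and lowest means in the same subsets, at 325 and 309 CPM and at 128 and 146 CPM. The highest overlapped the *Pln* subset, which was at 315 CPM in aorta 1. *Itgb5* and *Itgav* had their highest means in the subset led by *Hoxa7*, *Ccdc3* and *Tnc*, at 335 and 341 CPM and at 84.4 and 80.3 CPM. For *Itgb5* the *Cyb5r3* subset was higher in aorta 2, at 354 CPM. *Itgb3* had its lowest mean in the *Adamtsl1* subset (48.4 and 43.0 CPM), which overlapped the *Pln* subset (46.3 and 55.2 CPM). The *Cyb5r3* and *Adam33* subsets were shallow, with medians of 1793 and 1977 UMIs, and the former had the highest median mitochondrial share at 7.03%. The part of depth and RNA quality in their values was not tested. In the *Adam33* subset *Itga8* differed between the aortas, at 1326 and 1964 CPM.

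**Figure D5:**
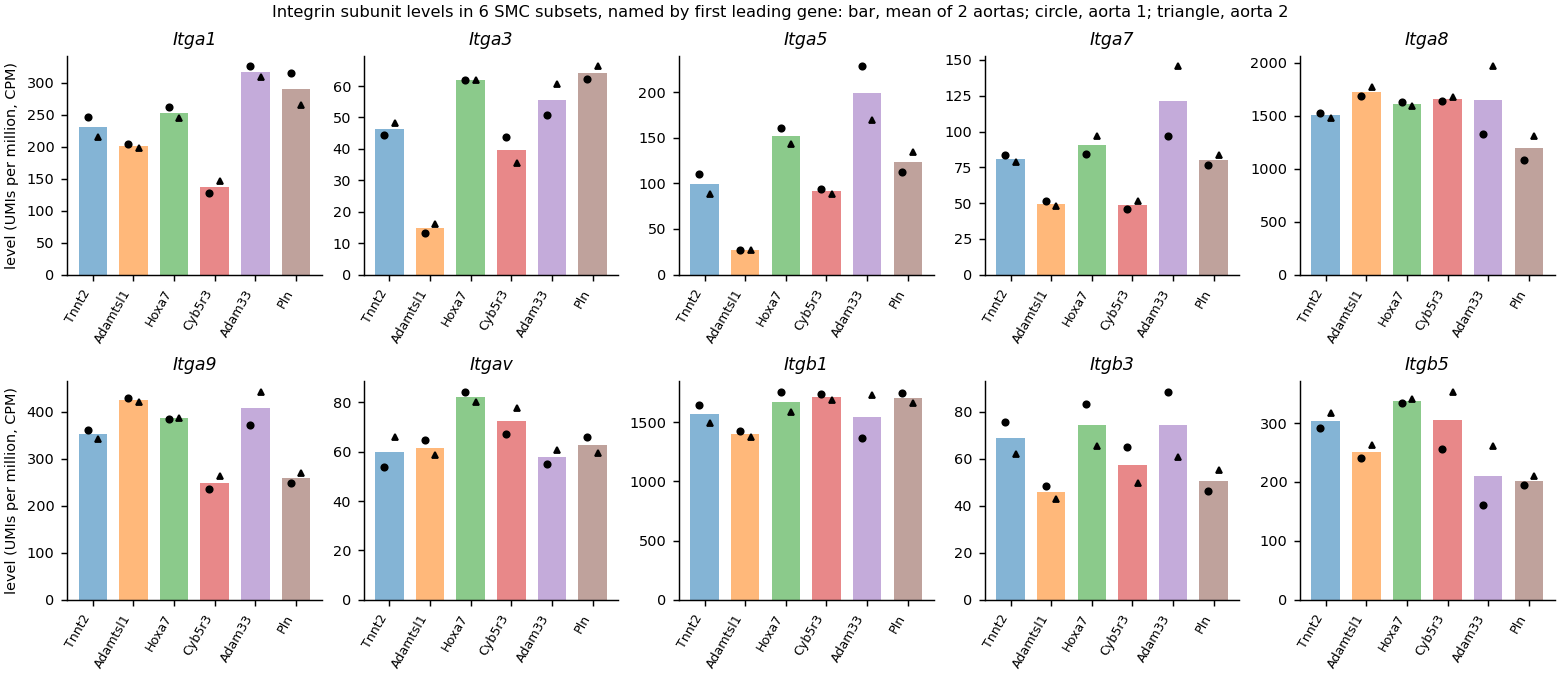
Levels (CPM, axis from 0) of the 10 transcripts in 6 SMC subsets named by their first leading gene, with bars for the mean of 2 aortas, circles for aorta 1 and triangles for aorta 2. *Itga5* and *Itga3* are lowest in the *Adamtsl1* subset, at 26.8 CPM in each aorta and at 13.3 and 16.3 CPM, while *Itga8* and *Itgb1* are near level.

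Genes with the most similar pattern over the 16 sums of aorta and named type were found by Pearson r on log2(CPM + 1) among 13955 genes. For *Itga8* they were *Ryr2* (0.978), the ryanodine receptor of calcium stores, *Myh11* (0.973), smooth muscle myosin, and *Lmod1* (0.968), a leiomodin of the thin filament. For *Itga7* they were *Igsf9b* (0.982), *Csdc2* (0.957) and *Syde2* (0.955), and for *Itgb1* they were *Dynlt3* (0.986), *Ctnnb1* (0.985), which encodes β-catenin, and *Manbal* (0.979). *Itga5* and *Itga9* were among the 3 genes most like each other (0.932), the highest value among the 45 pairs of members. *Itga3* and *Itga8* were the least alike pair (0.107). The sums share 2 libraries, and these values are descriptions. They include the erythroid sums of 24 and 14 cells, where *Itgb1* was at 211 and 0 CPM. The part of these sums in r was not tested.

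Of 32 genes for the adhesion machinery, which joins integrins to actin, 31 were tested. Against fibroblasts 15 were higher in SMCs and 3 were lower (median log2 fold change 0.74, against -0.01 over all genes), beside 10.5% and 14.8% of all genes. *Flna*, the actin cross-linker filamin A, was at 2274 and 2090 CPM in SMCs and 295 and 272 CPM in fibroblasts (3.09 ± 0.14), and *Actn1*, α-actinin, was at 1003 and 971 CPM against 140 and 134 CPM (2.99 ± 0.15). *Pxn*, the adaptor paxillin, was lower in SMCs at 13.02 and 12.1 CPM against 28.9 and 34.6 CPM (-1.18 ± 0.14). Against endothelial cells 14 were higher in SMCs and 8 were lower (14.4% and 15.4% of all genes), the latter led by *Parvb* (-7.09), *Ptk2b* (-6.54) and *Fermt3* (-3.98). Between fibroblasts and endothelial cells, 3 were higher in fibroblasts and 9 in endothelial cells (14.3% and 11.5% of all genes).

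Of 22 integrin ligands, 21 were tested, with 3 higher in SMCs and 11 higher in fibroblasts (10.5% and 14.8% of all genes). The median log2 fold change was -1.14, against -0.01 over all genes. *Npnt*, which encodes the α8β1 ligand nephronectin, had the largest difference on the SMC side against fibroblasts. It was at 755 and 786 CPM in SMCs against 30.3 and 29.0 CPM in fibroblasts (4.84 ± 0.17). In endothelial cells *Npnt* was at 47.0 and 27.2 CPM (4.54 ± 0.18), and *Tnc* had a larger difference on the SMC side there (5.43). *Lama5* (3.11) and *Tnc* (1.296) were the others higher in SMCs than in fibroblasts. *Lamb1* (-7.64), *Nid1* (-5.57) and *Col1a1* (-3.57) led the fibroblast side. Against endothelial cells 10 ligands were higher in SMCs and 5 were lower (14.4% and 15.4% of all genes), with *Thbs1* (-6.21) leading the endothelial side. Of the 17 other integrins, 14 were tested. In SMCs against fibroblasts 3 were higher and 5 were lower, beside 10.5% and 14.8% of all genes. The higher ones were *Itga4* (2.40), *Itga10* (2.06) and *Itga6* (1.72). These were low in SMCs too, at 10.1 and 7.16 CPM, 13.4 and 12.9 CPM, and 2.05 and 2.33 CPM in that order. The lower ones were led by the collagen receptor subunits *Itga11* (-6.28) and *Itga2* (-4.61). *Itgb4*, the β4 laminin receptor subunit, was at 159 and 167 CPM in endothelial cells and under 1 CPM in SMCs (-8.40).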

How the data were processed

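Single cells of 2 thoracic aortas were profiled by 3′ droplet RNA sequencing. The deposited values are raw UMI counts per gene and cell, which the authors made with Cell Ranger 4.0.0 from mm10 with reporter sequences added. The submitters' processing notes also name Seurat 4.0. Cells with more than 200 genes, 1000 to 25000 UMIs and under 10% mitochondrial UMIs were kept, from 8947 and 6263 deposited cells. The labels give 6278 and 4300 cells after the authors' own filtering. Doublets called by Scrublet (224 and 105 cells) were removed. Cells were clustered in scanpy 1.11.5 (2000 variable genes, 30 principal components, 15 neighbours, Leiden resolution 1, and 0.5 for SMCs, leidenalg 0.10.2, Python 3.11.15), leaving out integrin, reporter, mitochondrial and listed genes. Clusters were named from markers of 11 classes, so every cell type name here means cells like that type, and it can differ from the study's.

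UMI counts were summed per aorta and type (at least 10 cells in each aorta) and fitted in edgeR 4.0.16 (R 4.3.3) with trimmed-mean scaling, its default gene filter and the quasi-likelihood test, with Benjamini-Hochberg adjustment over all genes tested. The standard error (SE) is that of the log2 fold change, and 95% intervals of it use the normal quantile. The 2 samples are separate animals, and sums with the same number come from the same animal. Deviations of same-numbered sums correlated between -0.26 and 0.36 over 2432 genes. The fit was tested on simulated data. DESeq2 1.42.0 and other settings were alternatives. All 10 members were named. Of each gene list, up to 3 called genes with the largest change in each direction could be named. The 3 genes most alike a member were also named, as were the highest and lowest SMC subsets. Clusters were singled out after their values were seen. Members and lists were chosen with earlier results of these data known.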

Additional observations from a re-analysis of the deposited data

How the results depend on the processing

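Of 840 fold changes over 14 alternatives for the 6 structural comparisons, 811 had the same sign and the same call, 11 lost the call, 7 gained it and 11 changed sign. The cause of the sign changes was not tested. With 5000 to 25000 UMIs per cell, fibroblasts against endothelial cells gave -0.84 for *Itga7*, -0.029 for *Itga8* and -0.44 for *Itgb3*, and endothelial against mesothelial cells gave 0.24 for *Itga7* and 0.026 for *Itgb3*. With doublets kept, fibroblasts against endothelial cells gave -0.55 for *Itga7* and -0.29 for *Itgb3*. For *Itgb3* the same comparison gave -0.013 with listed genes allowed in the clustering, -0.036 at Leiden resolution 0.5 and -0.051 at resolution 2. With DESeq2, *Itga8* in endothelial against mesothelial cells was -0.21. By adjusted p alone, 9 members rather than 5 differed between SMCs and endothelial cells. No other count moved over 1.5 times: members called ranged from 6 to 9 for fibroblasts against endothelial cells, and pairs against immune types from 50 to 65. In SMCs against endothelial cells, log2 fold changes ranged from 3.18 to 6.50 for *Itga8* and from 2.76 to 6.80 for *Itga7*, lowest with 5000 to 25000 UMIs. With aorta as a replicate block, all 60 fold changes kept their side of the call, and the number of members called in SMCs against fibroblasts stayed at 8. Each aorta alone gave values without a test, and none of the called differences changed sign in either. Upper-quartile scaling was run without the erythroid sums, with which it could not be fitted. Leaving out the shallow SMC cluster, chosen after seeing the data, and leaving out the fibroblast clusters rich in SMC markers, also chosen then, left 8 members called in SMCs against fibroblasts. The number of UMIs limits *Itga7* and *Itga3*, with 1324 and 923 UMIs of *Itga7* and 1148 and 776 UMIs of *Itga3* in aortas 1 and 2.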
